A study of Mus musculus with 3 samples.

Results

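Receptors and bridging proteins that bind dying cells to phagocytes are described here across the cell classes of the infarcted mouse heart. They are the genes Mertk, Axl, Mfge8, Lrp1, Timd4 and Lgals3, chosen by name as receptors and bridging proteins of efferocytosis, and all 6 are among the 29298 genes listed in the deposited tables. Cells positive for CD45, the surface protein of leukocytes, had been selected on microbeads from infarcted hearts of F7fl/fl CX3CR1Cre and F7fl/fl WT mice at several times after permanent ligation of a coronary artery, and their polyadenylated RNA was counted on the BD Rhapsody single-cell platform. In both genotypes the F7 gene, which encodes coagulation factor 7, is flanked by loxP sites, and in F7fl/fl CX3CR1Cre mice the Cx3cr1 promoter, active in monocytes and macrophages, drives the Cre recombinase. The data came as 18 sample tags, each marking a biological replicate, in 3 pooled libraries with 7, 5 and 6 tags. Which tag carries which genotype and time was not used here. Every test therefore compares cells of the same tag. The sources used here do not give the age of the mice.

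Of 25762 cells, 25640 had at least 200 genes and were kept, between 695 and 2494 per tag, with a median of 11612 to 20282 molecules per cell and 10152522 to 62344127 molecules in all per tag. Cells were put in classes by a fixed sequence of rules on class markers. These gave 14977 macrophages (C1q transcripts at 0.1% of molecules or more), 2422 monocytes, 1362 dendritic cells (DC), 488 neutrophils, 1225 T cells, 779 B cells and 415 fibroblasts, and 3972 cells met no rule. No C1q gene is a member, so that rule did not use the counts of any member. A member's level in macrophages can still depend on where the C1q threshold lies. Of the further macrophage markers, Adgre1, Csf1r, Cd68 and Mrc1 were highest in the macrophage class, while Fcgr1 was highest in monocytes, and none of these was at 0 in any class. The T and B classes were the most mixed. Of T cells 77.7%, and of B cells 66.0%, also met a later rule, and the summed level of the 6 macrophage markers stood at 52.3% of the macrophage level in T cells and 64.5% in B cells. In T and B cells that met their own rule only, these shares were 17.8% and 27.9%. Of DC 28.7% also met the monocyte rule. A later rule was also met by 18.4% of neutrophils, 15.8% of macrophages and 14.5% of fibroblasts. The summed level of 5 monocyte markers was 2438 CPM in DC and 1539 CPM in DC that met their own rule only. A cell index was shared by 4 cells of libraries 1 and 2 and by 3 of libraries 1 and 3. Levels below are a gene's molecules per 1000000 molecules of a class within a tag (CPM), for classes with at least 20 cells in the tag. CPM is not scaled to transcript length, so levels are compared between classes and not between genes.

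Efferocytosis is the uptake of dying cells by phagocytes, which recognise phosphatidylserine and other signals exposed on the dying cell. Mertk and Axl are receptor tyrosine kinases of the TAM family that bind phosphatidylserine through bridging proteins, Gas6 for both and protein S for Mertk. Mfge8 is a secreted protein that links phosphatidylserine to integrins, and Timd4 is a receptor that binds phosphatidylserine itself. Lrp1 is a large endocytic receptor that takes part in uptake through calreticulin, and Lgals3 encodes galectin-3, a sugar-binding protein that is abundant in phagocytosing macrophages and has been described as a ligand of Mertk. In the infarcted heart, macrophages that clear dead cardiomyocytes and neutrophils are known to depend on Mertk, and Timd4 is a known marker of long-lived resident macrophages.

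The genes lie on 5 chromosomes of GRCm38. Mertk is at chr2:128698956-128802894 (plus strand), Axl at chr7:25757273-25788705 (minus), Mfge8 at chr7:79133768-79149060 (minus), Lrp1 at chr10:127538161-127621148 (minus), Timd4 at chr11:46810800-46844332 (plus) and Lgals3 at chr14:47367751-47386160 (plus), all annotated as protein coding. The 250 bases before the RefSeq start are shown for Axl, Mfge8 and Timd4, because these 3 genes differed most between macrophages of different states. They are RefSeq sequence of GRCm38.p6, read 5′ to 3′ on the gene's own strand, and capitals mark matches to a searched motif.
Axl, chr7:25788734-25788983, minus strand: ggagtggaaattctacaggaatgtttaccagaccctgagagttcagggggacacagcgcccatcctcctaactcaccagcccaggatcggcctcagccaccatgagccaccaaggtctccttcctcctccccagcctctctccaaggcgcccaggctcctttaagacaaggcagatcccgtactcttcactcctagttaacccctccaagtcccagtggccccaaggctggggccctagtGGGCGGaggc
Mfge8, chr7:79149061-79149310, minus strand: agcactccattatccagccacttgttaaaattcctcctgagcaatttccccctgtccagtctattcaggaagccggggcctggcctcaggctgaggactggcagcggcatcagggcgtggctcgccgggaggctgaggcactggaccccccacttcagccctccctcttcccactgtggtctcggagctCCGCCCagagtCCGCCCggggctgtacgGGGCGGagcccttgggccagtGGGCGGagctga
Timd4, chr11:46810549-46810798, plus strand: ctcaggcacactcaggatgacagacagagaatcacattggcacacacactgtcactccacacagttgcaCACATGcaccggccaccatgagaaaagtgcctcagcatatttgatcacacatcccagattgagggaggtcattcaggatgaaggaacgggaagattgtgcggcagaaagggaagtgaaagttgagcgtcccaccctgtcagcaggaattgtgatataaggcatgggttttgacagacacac
The GC box (GGGCGG, either strand) occurred 4 times in the Mfge8 window, once in that of Axl and not in that of Timd4, against at least 1 match in 32.7% of 32851 mouse promoters of the same length. The Mertk window held 3 matches, and those of Lrp1 and Lgals3 held 1 each. The Lgals3 window (chr14:47373610-47373859) precedes the RefSeq start and lies inside the longer gene annotated at the coordinates given above. The Timd4 window held the M-box letters CATGTG on the minus strand, which 12.3% of promoters hold. Guanine and cytosine made up 65.2% of the Mfge8 window and 60.0% of that of Axl, with a median of 52.4% over all promoters. The interferon-stimulated response element (both strands searched, 2.98% of promoters) was found in none of the 6 windows. The interferon gamma activated site (TTCNNNGAA, 7.02% of promoters) was found 1 time in the Lrp1 window and in no other.

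Mertk was highest in macrophages. Its level in the 18 tags had a lowest value of 79.1, a median of 117 and a highest value of 146 CPM in macrophages. In monocytes of 10 tags it was 4.08, 37.8 and 57.6 CPM, in DC of 16 tags 0, 9.65 and 23.3 CPM, in neutrophils of 9 tags 0, 17.1 and 39.8 CPM and in fibroblasts of 9 tags 0, 11.7 and 17.4 CPM. No monocyte, DC, neutrophil or fibroblast sum of any tag reached the lowest macrophage sum. In T cells the 18 sums lay between 8.18 and 68.5 CPM and in B cells between 30.9 and 80.3 CPM, so that of the named classes only B cells overlapped with macrophages. Cells that met no rule also overlapped, at 84.7, 102 and 94.5 CPM in tags 9, 11 and 12 of library 1. Their summed macrophage markers were 2965 CPM, against 4479 CPM in macrophages. In T cells that met no other rule the pooled level was 11.1 CPM, and in such B cells 27.5 CPM, against 125 CPM in macrophages that met no other rule.

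The order of medians for Mertk ran from macrophages through B cells, T cells, monocytes, neutrophils and fibroblasts to DC. Macrophages and B cells differed (log2 difference 0.99, SE 0.08, adjusted p = 2.91e-10, edgeR quasi-likelihood test), as did B and T cells (0.49, SE 0.14, adjusted p = 0.0097). T cells and monocytes did not pass the test (adjusted p = 0.624), nor did monocytes and neutrophils (adjusted p = 0.36), and the pairs among the lowest 3 classes were below the count filter. The places of B and T cells rest on mixed classes. In cells that met no other rule, medians were 37.8 CPM in monocytes (10 tags), 13.4 CPM in B cells (5 tags) and 5.97 CPM in T cells (4 tags). A molecule of Mertk was found in 70.7% of macrophages (exact 95% interval 69.9 to 71.4%), whose median depth was 20550 molecules, and in 6.96% (4.24 to 10.7%) of T cells that met no other rule, whose median depth was 6845 molecules. With every cell thinned to 1000 molecules, these shares were 10.6% and 0.366%. Intervals cover counting error only.

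Axl and Mfge8 were highest in fibroblasts. Axl had a lowest value of 34.5, a median of 123 and a highest value of 185 CPM over the 18 macrophage sums, against 226, 265 and 350 CPM over the 9 fibroblast sums, with no overlap. Neutrophils had 0, 8.38 and 29.3 CPM, monocytes 16.3, 53.9 and 226 CPM and DC 25.0, 78.0 and 132 CPM. The Axl level of macrophages also split by library, with 34.5 to 103 CPM in the 7 tags of library 1, 123 to 185 CPM in the 5 of library 2 and 104 to 174 CPM in the 6 of library 3. Library 1 differs from the others in beads, software release and the counting of intronic reads, and the genotypes and times it holds were not used here, so these cannot be told apart. The order of Axl medians was fibroblasts, macrophages, B cells, T cells, DC, monocytes and neutrophils. B and T cells did not pass the test (adjusted p = 0.993), and neither did T cells and DC (adjusted p = 0.566). In the 10 tags with both classes, monocytes were above DC (log2 difference of DC minus monocytes -0.45, SE 0.14, adjusted p = 0.0108), the reverse of the order of their medians over unequal sets of tags. In cells that met 1 rule this difference was no longer called (-0.40, SE 0.19, adjusted p = 0.0874, 9 tags). Medians in such cells were 57.7 CPM in DC, 53.9 CPM in monocytes, 36.4 CPM in B cells (5 tags) and 27.6 CPM in T cells (4 tags).

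Mfge8 had 25.1, 71.8 and 273 CPM (lowest, median, highest) in macrophages, against 170, 291 and 402 CPM in fibroblasts. The macrophage values overlap with those of fibroblasts and were 32.0 to 83.9 CPM in library 1, 25.1 to 273 CPM in library 2 and 44.5 to 259 CPM in library 3. In monocytes Mfge8 was 4.07, 8.37 and 27.8 CPM, below the macrophages of the same tag in 9 of 10 tags. DC had a median of 32.8 CPM, and a single DC sum of library 3 stood apart at 199 CPM. In neutrophils 5 molecules were counted among 2382681. A molecule was found in 24.6% of macrophages (23.9 to 25.3%), in 87.5% of fibroblasts (83.9 to 90.5%) and in 1.02% of neutrophils (0.333 to 2.37%), with median depths of 20550, 26512 and 3997 molecules. Neighbours in the order of medians differed from fibroblasts to macrophages and from macrophages to DC. From DC through B cells, T cells and monocytes the 3 neighbouring pairs did not pass the test (adjusted p from 0.0815 to 0.783).

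Lrp1 was shared between macrophages, monocytes and fibroblasts. It had 273, 372 and 480 CPM in macrophages of 18 tags, 272, 431 and 506 CPM in monocytes of 10 tags and 265, 336 and 446 CPM in fibroblasts of 9 tags, which overlap throughout. DC had 50.5, 112 and 176 CPM, and all 16 DC sums lay below all macrophage sums. Neutrophils had 0, 61.4 and 152 CPM. Monocytes, macrophages and fibroblasts, the 3 highest, were not separated by the tests of neighbours (adjusted p = 0.415 and 0.458), while fibroblasts, B cells, T cells and DC each differed from the next (adjusted p = 0.00035, 0.000227 and 5.03e-06). The step from T cells to DC rests on the mixed T class and turned in cells that met 1 rule, where T cells minus DC was -0.73 (SE 0.42, adjusted p = 0.312, 2 tags) in place of 0.74. In such cells the steps from fibroblasts to B cells and from B to T cells were no longer called (adjusted p = 0.0903 and 0.158, 2 tags each). A molecule of Lrp1 was present in 92.2% of macrophages, 92.7% of monocytes and 91.1% of fibroblasts, against 47.0% of DC and 22.7% of T cells that met no other rule.

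Timd4 was rare. Its 1934 molecules in macrophages came from 352 of 14977 cells (2.35%, 2.11 to 2.61%), and the macrophage level ranged from 0.715 to 22.3 CPM with a median of 4.89 CPM. In library 1 the 7 tags held 0.715 to 3.80 CPM, below all 5 tags of library 2 (5.95 to 19.2 CPM), and library 3 spanned 2.76 to 22.3 CPM. Monocytes held 13 molecules among 33890172, and 4 of their 10 sums were at 0. Neutrophils held none in 488 cells, which allows a share of up to 0.615% of cells with a molecule, and T cells that met no other rule held none in 273 cells, which allows up to 1.1%. In DC a molecule was found in 3.38% of cells (2.48 to 4.48%), in B cells in 2.70% and in B cells that met no other rule in 1 of 265. DC of library 2 had a median of 21.5 CPM and a highest value of 40.8 CPM, while 4 of 16 DC sums were at 0. In the order of medians only macrophages and DC had enough counts for a test of neighbours, and it was not passed (adjusted p = 0.11).

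Lgals3 separated all leukocyte classes from fibroblasts. Its level was 1734, 3232 and 4894 CPM in macrophages, 1828, 2859 and 4156 CPM in monocytes, 885, 1292 and 1804 CPM in DC, 411, 870 and 1623 CPM in neutrophils and 119, 198 and 285 CPM in fibroblasts. All 9 fibroblast sums were below the sums of the other 6 classes. From macrophages through monocytes, B cells, T cells, DC and neutrophils to fibroblasts, every pair of neighbours passed the test except B and T cells (adjusted p = 0.329). T cells minus DC was 0.41 (SE 0.10) and turned to -0.46 (SE 0.19, adjusted p = 0.188, 2 tags) in cells that met 1 rule. In such cells DC and neutrophils were no longer separated (adjusted p = 0.187), and B and T cells were (adjusted p = 0.0463, 2 tags). The difference between neutrophils and fibroblasts was 2.15 (SE 0.39, adjusted p = 4.1e-06) and rested on 3 tags. A molecule of Lgals3 was found in 98.3% of macrophages, and after thinning to 1000 molecules in 77.0% of macrophages, 83.5% of monocytes and 17.4% of fibroblasts, and in cells that met no other rule in 53.4% of DC and 24.9% of T cells.

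**Figure D1:**
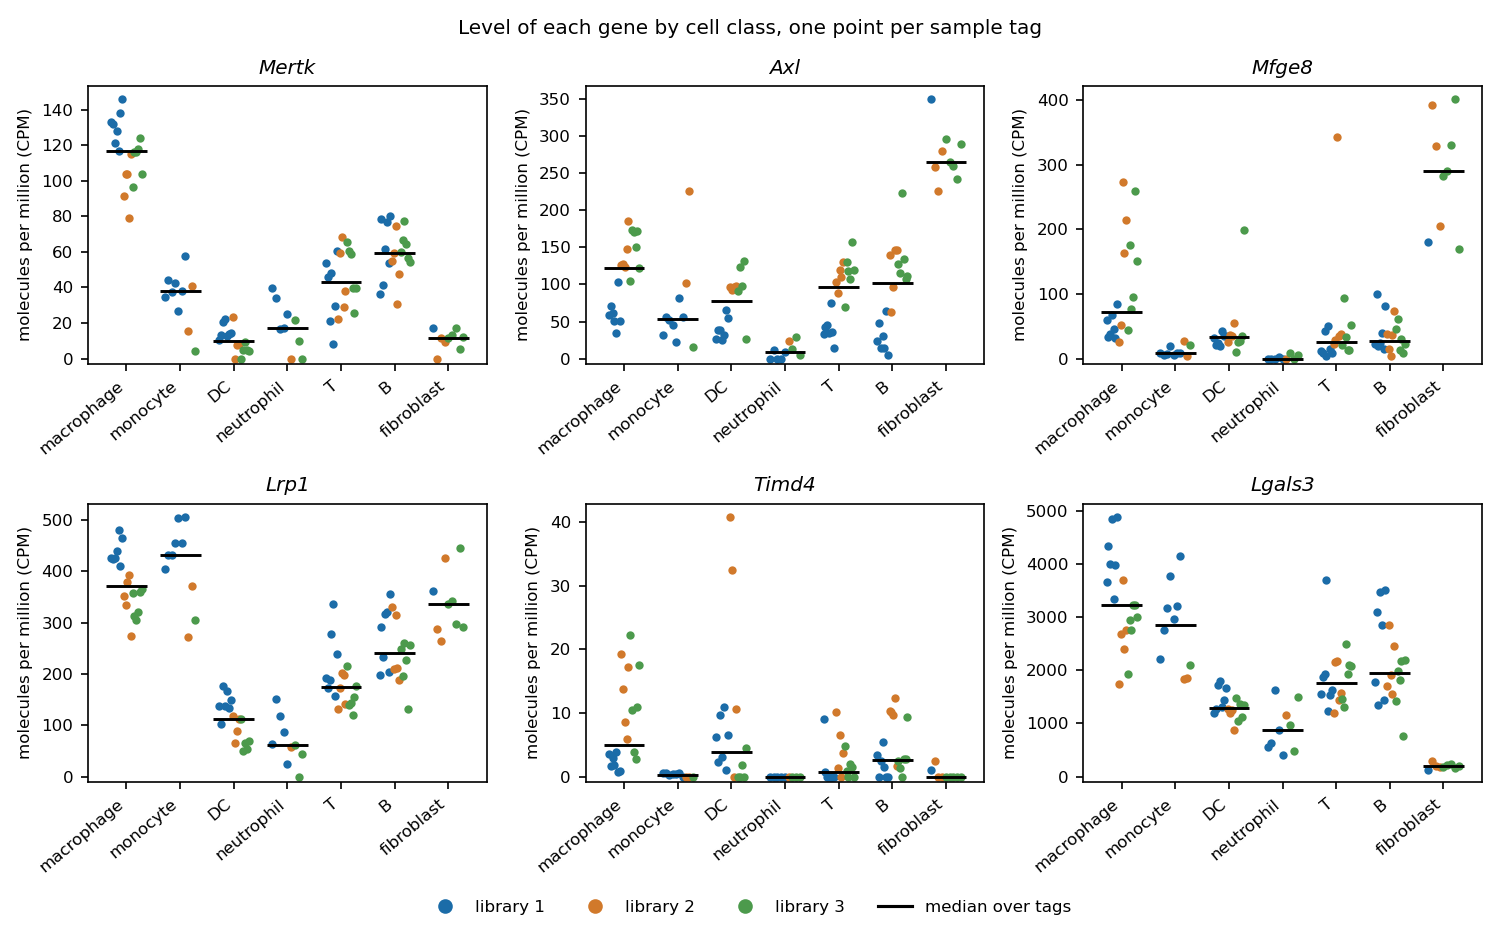
Level of each gene in CPM (vertical axes, linear, a scale for each gene) by cell class (horizontal axes), with a point for each sample tag that has at least 20 cells of the class, coloured by library, and a bar at the median. Mertk is highest in macrophages (79.1 to 146 CPM), Axl and Mfge8 are highest in fibroblasts (medians of 265 and 291 CPM), and the macrophage values of Axl lie lower in library 1 (34.5 to 103 CPM) than in every tag of libraries 2 and 3.

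The classes were next compared within tags, with the tag as a block and p-values adjusted over all genes tested. Against monocytes, macrophages had more Mertk (log2 difference 1.63, SE 0.12, adjusted p = 1.41e-08, higher in 10 of 10 tags) and more Mfge8 (2.43, SE 0.20, adjusted p = 6.97e-08, 9 of 10 tags). Lgals3 was also higher (0.29, SE 0.06, adjusted p = 0.00117), but not without library 1 (0.29, adjusted p = 0.322, 3 tags). Axl (0.21, SE 0.15, adjusted p = 0.235) and Lrp1 (-0.06, SE 0.07, adjusted p = 0.415) did not pass the test. Timd4 was too low in these sums for the filter, its level was higher in macrophages in 10 of 10 tags, and with no filter it passed the test (2.96, adjusted p = 1.07e-07). The count of 3 of 5 members tested that were higher stands beside 32.5% of 11138 genes called higher and 32.0% called lower. Library 1 alone, with 7 tags, called all 6 members, 5 higher and Lrp1 lower (-0.14, adjusted p = 0.00781).

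Against DC, 5 of 6 members were higher in macrophages, where 36.1% of 10799 genes were called higher and 29.7% lower. Mertk differed most, at 3.36 (SE 0.15, adjusted p = 3.49e-15), followed by Lrp1 at 1.91 (SE 0.09), Lgals3 at 1.39 (SE 0.08), Mfge8 at 1.11 (SE 0.22) and Axl at 0.68 (SE 0.10, adjusted p = 3.25e-06). Mertk, Lrp1 and Lgals3 were higher in 16 of 16 tags. Timd4 gave -0.61 (SE 0.33, adjusted p = 0.11), with opposite directions in library 1 alone (-1.31, adjusted p = 0.00244) and library 3 alone (2.66, adjusted p = 0.00978), and it was lower in macrophages without library 3 (-1.13, adjusted p = 0.00181) and in cells that met 1 rule (-1.06, adjusted p = 0.00732), but 0.21 without library 1 (adjusted p = 0.753).

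Against neutrophils, all 5 members tested were higher in macrophages in 9 of 9 tags, where 39.8% of 10346 genes were called higher and 19.9% lower. Differences were 5.04 for Mfge8 (SE 0.45), 3.27 for Axl (SE 0.35), 2.51 for Mertk (SE 0.29), 2.48 for Lrp1 (SE 0.23) and 1.97 for Lgals3 (SE 0.20), with adjusted p-values from 1.46e-11 to 4.03e-09. The median of all genes in this comparison was 0.56, and 0.73 with the other scaling, and all 5 differences lie above both. Mertk was 3.39 without library 1, and Mfge8 6.38 without library 3. Neutrophils had a median of 3997 molecules per cell, against 20550 in macrophages.

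Against fibroblasts the members split. Timd4 (5.25, SE 0.56), Lgals3 (3.93, SE 0.18) and Mertk (3.30, SE 0.19) were higher in macrophages in 9 of 9 tags. Axl was lower in 9 of 9 tags (-0.99, SE 0.17, adjusted p = 0.000104) and Mfge8 in 8 of 9 (-1.28, SE 0.29, adjusted p = 0.00115), and Lrp1 did not pass the test (0.10, SE 0.11, adjusted p = 0.458). Of 11258 genes, 34.6% were called higher and 32.9% lower. All fibroblasts held 4 Timd4 molecules, of which the fit used 1 in tag 8 of library 1 and 1 in tag 2 of library 2. The Timd4 difference is a fitted value against these, and it was 6.16 without library 1 and 3.61 without library 3. Mertk was 3.94 in cells that met 1 rule.

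Against T cells all 6 members were higher in macrophages (33.9% of 10844 genes called higher, 32.4% lower), and the same 6 were higher against B cells (25.1% of 10570 called higher, 24.5% lower). The differences from T cells ran from 0.52 for Axl (SE 0.11) to 2.04 for Timd4 (SE 0.38), and those from B cells from 0.47 for Axl (SE 0.13, adjusted p = 0.00457) to 1.27 for Mfge8 (SE 0.29). The summed level of the 6 macrophage markers ranged over tags from 1294 to 3240 CPM in T cells and from 1653 to 3873 CPM in B cells, beside 3461 to 5235 CPM in macrophages, and their part in the result was not tested. With only cells that met 1 rule, Mertk was 3.50 above T cells in place of 1.51 and 2.53 above B cells in place of 0.99. Lrp1 was then 2.72 above T cells and 1.44 above B cells, Lgals3 1.94 and 1.74, and Axl 1.97 and 1.24, and Timd4 against B cells no longer passed (1.51, adjusted p = 0.299). Against B cells, Axl lost its call without library 1 (0.19, adjusted p = 0.149) and Timd4 without library 3 (0.46, adjusted p = 0.33). Against T cells, Timd4 was 1.44 without library 3 and below the count filter without library 2.

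**Figure D2:**
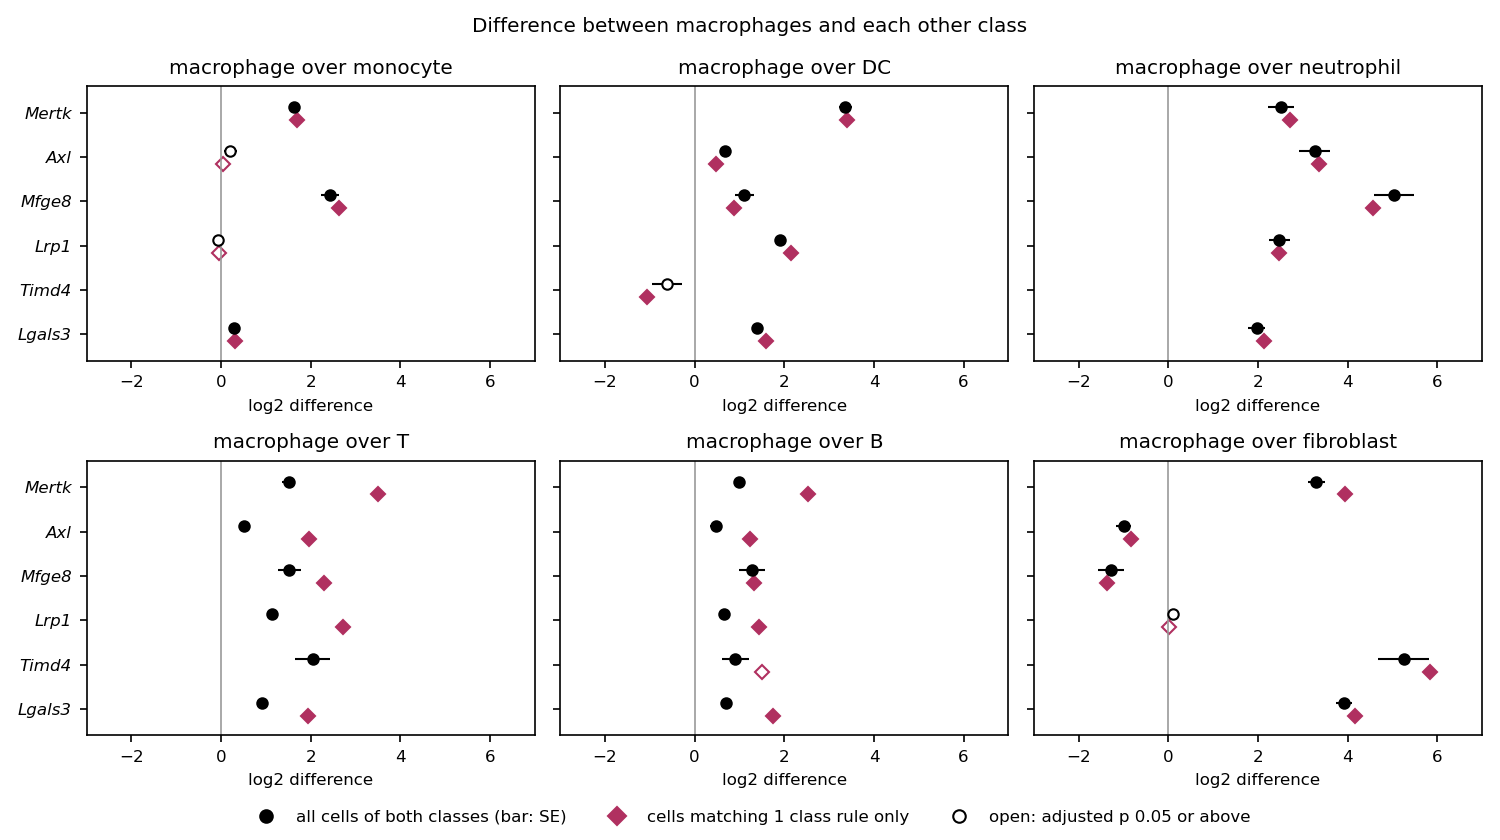
Log2 difference (horizontal axes) of each gene between macrophages and each other class, from fits with the tag as a block. Black circles use all cells with bars of 1 SE, red diamonds use cells that met a single class rule, and open symbols have an adjusted p of 0.05 or above. Diamonds lie to the right of the circles for Mertk, Axl, Lrp1 and Lgals3 against T and B cells (Mertk 3.50 against 1.51 for T cells), and Axl (-0.99) and Mfge8 (-1.28) are the members below 0 against fibroblasts.

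Other genes of the pathway were counted from a list of 87 in 6 roles. Between macrophages and monocytes, 26 of 80 tested were higher and 27 lower, with a median log2 difference of -0.07 beside 0.01 over all genes. The shares over all genes were alike, with 32.5% called higher and 32.0% lower. Gas6, the bridging ligand of Axl and Mertk, differed most upward (2.82, SE 0.10, with medians of 148 CPM in macrophages and 18.6 CPM in monocytes), followed by the sphingosine phosphate receptor S1pr1 (1.97) and the lipid carrier Apoe (1.83). Complement C3 (-2.36), thrombospondin Thbs1 (-1.76) and the lysophospholipid receptor Gpr132 (-1.52) were lower. Against DC, 54 of 80 were higher and 14 lower (median 0.81, all genes 0.08), and 14 of 17 genes of digestion and lipid efflux were higher. Of all genes tested against DC, 36.1% were called higher and 29.7% lower. Gas6 (4.61) and Apoe (3.79) led there too, and Siglecg (-5.57), a sialic acid-binding inhibitory receptor, was lower.

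Against fibroblasts, 15 of 19 tested receptors were higher in macrophages but 2 of 11 bridging proteins, with 6 bridging proteins lower. Of all genes tested against fibroblasts, 34.6% were called higher and 32.9% lower. Scavenger receptors Cd36 (5.09) and Msr1 (4.78) were higher. Tyro3, the remaining TAM receptor, was lower (-5.61, SE 0.48) with medians of 0.217 CPM in macrophages and 10.9 CPM in fibroblasts, as were Ptx3, a secreted pattern recognition protein (-8.15), and the engulfment adaptor Gulp1 (-7.36). Gas6 was lower too (-0.98, SE 0.21, adjusted p = 0.000619), with medians of 141 CPM in macrophages and 338 CPM in fibroblasts. Pros1, which encodes protein S, was -0.52 (SE 0.16, adjusted p = 0.00794). Fibroblasts of these tags thus held more Axl, Mfge8, Gas6 and Pros1 in CPM than macrophages.

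Of the list, 39 of 78 tested genes were higher and 27 lower against neutrophils, 62 and 11 of 80 against T cells and 51 and 13 of 80 against B cells. Over all genes, 39.8% were called higher and 19.9% lower against neutrophils, 33.9 and 32.4% against T cells and 25.1 and 24.5% against B cells, and the median of all genes against neutrophils was 0.56. C4b, Gas6 and Trem2 led the higher genes against neutrophils (4.61, 3.83 and 3.72), and the chemoattractant receptor Fpr2 (-5.02) and Cd24a (-3.96), a ligand that restrains uptake, led the lower ones. Itgb3, an integrin subunit, was lower against T cells (-3.36) and B cells (-2.96).

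Macrophages were then compared among themselves. In each tag, the 20% of macrophages with the largest share of molecules from a short marker list formed a state, and the other macrophages of the tag formed its comparison. A macrophage can belong to several states, and between 240 and 915 of the 14977 macrophages lay within 10% of the threshold for the 8 states of 3003 cells. In every state a cell also needed at least 1 molecule of the list. This left fewer than 20% of macrophages for the cavity genes Prg4, Gata6 and Alox15 (1391 cells) and for F7 (1982 cells, 16 tags tested). In tags where the 20% threshold of these genes lay above 0, other macrophages can hold molecules of them. Within 10% of such a threshold lay 2 macrophages for the cavity genes and 113 for F7.

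Axl was higher in MHC class II macrophages. In macrophages with most H2-Aa, H2-Ab1 and H2-Eb1, which present antigen, Axl had 101, 340 and 505 CPM (lowest, median, highest tag), against 21.4, 87.8 and 148 CPM in other macrophages. It was higher in 18 of 18 tags, by a log2 difference of 2.09 (SE 0.05, adjusted p = 5.43e-20), with 2.18, 1.94 and 2.11 in libraries 1, 2 and 3 alone. The other 5 members were all lower in these cells. Mfge8 was -1.30 (SE 0.23), Timd4 -1.19 (SE 0.39), Mertk -0.68 (SE 0.07), Lrp1 -0.55 (SE 0.04) and Lgals3 -0.40 (SE 0.08), with Mertk and Lrp1 lower in 18 of 18 tags. Mertk had 43.4, 67.5 and 122 CPM in the MHC II macrophages, against 84.3, 126 and 151 CPM in the others. Of 10952 genes, 27.4% were called higher and 29.5% lower.

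The MHC II macrophages had a median of 14826 molecules per cell, against 22512 in the others. Among macrophages at or above the median depth of their tag Lgals3 no longer differed (0.00, adjusted p = 0.986), Mfge8 was -0.61 (adjusted p = 0.0137), Mertk -0.44 and Axl 1.92. Timd4 lost its call without library 1 (-1.24, adjusted p = 0.0573) or library 2 (-1.10, adjusted p = 0.053), and was -1.98 in cells that met 1 rule. Of the pathway list 24 of 80 genes were higher and 36 lower, led by the integrin Itgax (2.25), Gpr132 (1.55) and the fractalkine receptor Cx3cr1 (0.94) on the higher side and S1pr1 (-1.82), Cd36 (-1.72) and C4b (-1.52) on the lower side. Gas6 was among the lower genes (-1.37, SE 0.11), in 18 of 18 tags.

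Axl was also higher in macrophages with most interferon-induced transcripts (Ifit1, Ifit2, Ifit3, Isg15 and Rsad2), which had 64.0, 200 and 313 CPM, against 27.9, 99.8 and 164 CPM in other macrophages. The difference was 1.13 (SE 0.05, adjusted p = 3e-15) and its direction held in 18 of 18 tags. Mertk was higher in 11 of 18 tags (0.13, SE 0.04, adjusted p = 0.00694), but not without library 1 (0.09, adjusted p = 0.224), and Lrp1 was lower (-0.23, SE 0.03). Mfge8, Timd4 and Lgals3 did not pass the test. In this comparison 15.3% of 10931 genes were called higher and 16.6% lower. Of the MHC II macrophages, 25.1% were also in the interferon state. The pathway list had 22 of 79 genes higher and 20 lower. Slc29a3, a lysosomal nucleoside transporter (0.61), and the lipid receptor Cd300lf (0.60) were highest and Olr1, a receptor of oxidised lipoprotein (-1.15), was lowest.

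**Figure D3:**
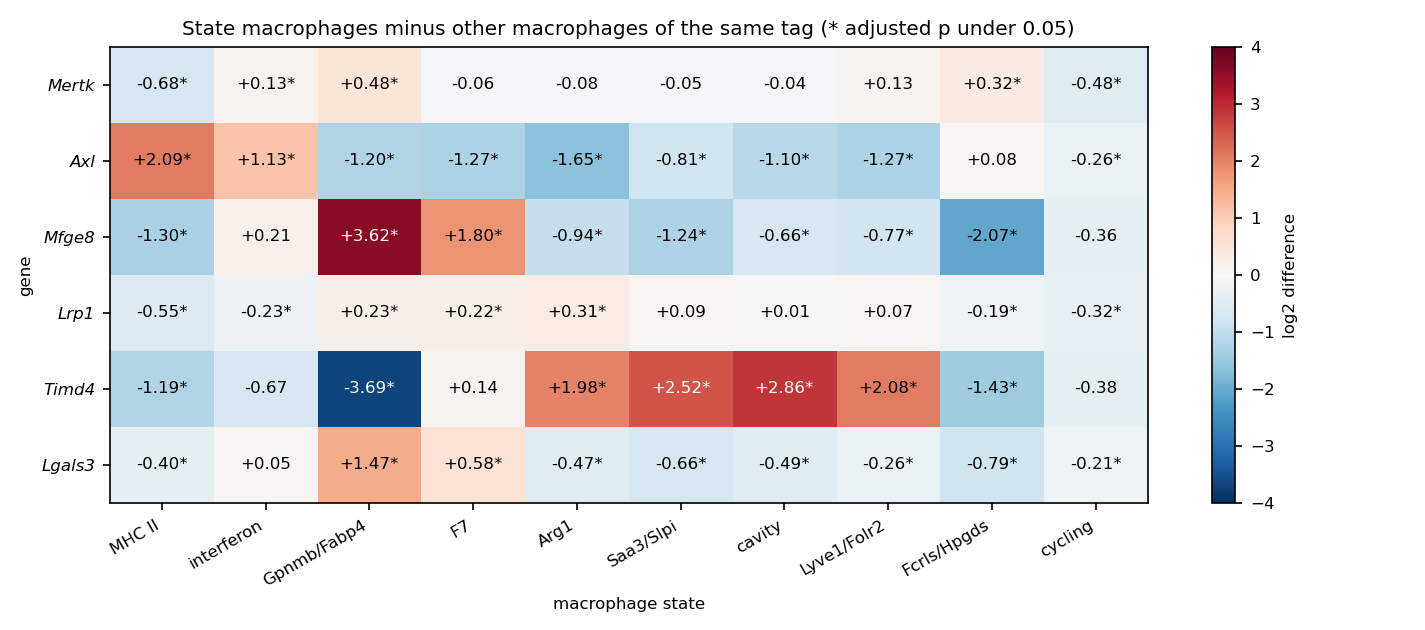
Log2 difference of each gene (rows) between macrophages of a state (columns) and the other macrophages of the same tags, coloured from -4 to 4, with an asterisk where the adjusted p was under 0.05. Axl is above 0 with an asterisk in the MHC II (2.09) and interferon (1.13) states, Mfge8 in the Gpnmb/Fabp4 (3.62) and F7 (1.80) states, and Timd4 in the cavity, Saa3/Slpi, Lyve1/Folr2 and Arg1 states (1.98 to 2.86).

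Mfge8 and Lgals3 were higher with Gpnmb and Fabp4, transcripts of lipid-laden macrophages. Mfge8 had 48.7, 194 and 841 CPM in these macrophages, against 8.80, 21.4 and 44.7 CPM in the others, with no overlap between the groups. Its difference was 3.62 (SE 0.22, adjusted p = 5.15e-12), and 25758 of the 31333 Mfge8 molecules of macrophages were in this state. Lgals3 had 3649, 5896 and 8224 CPM in the state and 1141, 2187 and 3904 CPM outside it, higher in 18 of 18 tags by 1.47 (SE 0.05, adjusted p = 6.98e-16). Mertk (0.48, SE 0.05, 18 of 18 tags) and Lrp1 (0.23, SE 0.05) were higher as well. Axl was lower in 18 of 18 tags (-1.20, SE 0.12), and Timd4 was lower in 17 of 18 (-3.69, SE 0.39), with 54 molecules in the state and 1880 outside. The Timd4 difference was -4.93 without library 1 and between -5.25 and -4.83 in deeper macrophages, cells that met 1 rule, the top 10% and with DESeq2, and Timd4 was below the count filter without library 2. The background was 28.6% of 11207 genes called higher and 32.0% lower.

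These macrophages were deep, with a median of 29007 molecules per cell against 18901 in the others. Among macrophages at or above the median depth of their tag the differences were 3.69 for Mfge8, 1.35 for Lgals3 and 0.45 for Mertk. Of the pathway list 32 of 80 genes were higher and 31 lower. Genes of digestion and lipid efflux counted 12 higher and 2 lower of 17, among them the lysosomal lipase Lipa (1.06, SE 0.04) and the cholesterol exporter Abcg1 (1.02, SE 0.05), while engulfment machinery counted 0 higher and 7 lower of 12. Gas6 (0.69, SE 0.06) and the lipid receptor Trem2 (0.91, SE 0.06) were higher in 18 of 18 tags, Pros1 was lower (-0.37, SE 0.04), and Olr1 (-3.09) and Fpr2 (-2.37) were the lowest.

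In macrophages of the F7 state the pattern was similar in sign for Mfge8, Lgals3, Lrp1 and Axl. Mfge8 had 19.4, 160 and 1156 CPM in them, against 15.3, 38.8 and 232 CPM in other macrophages of 16 tags, higher in 14 (1.80, SE 0.25, adjusted p = 7.34e-06). Lgals3 (0.58, SE 0.09) and Lrp1 (0.22, SE 0.04) were higher, Axl was lower in 16 of 16 tags (-1.27, SE 0.07), and Mertk (-0.06, adjusted p = 0.437) and Timd4 (0.14, adjusted p = 0.806) did not pass the test. Of 11089 genes, 19.8% were called higher and 20.2% lower. In library 2 alone, with 4 tags, the Mfge8 difference was 0.46 (adjusted p = 0.397). Of the F7 state macrophages 41.0% were also in the Gpnmb and Fabp4 state, and their median depth was 30772 molecules, against 19511 in the others. The genotype of each tag was not used, so the cells of the F7 state may come from either genotype. The pathway list had 23 of 79 genes higher and 24 lower. Cd24a (1.83), Thbs1 (0.90) and the integrin Itgam (0.89) were highest and Cx3cr1 (-2.22), P2ry12 (-0.95) and Gpr132 (-0.71) lowest.

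Timd4 was higher in 4 states that overlap. In macrophages with transcripts of the serous cavity genes it had 0, 21 and 125 CPM, against 0.333, 2.67 and 16.4 CPM in other macrophages, higher in 16 of 18 tags (2.86, SE 0.36, adjusted p = 8.07e-07). These 1391 cells held 1049 of the 1934 Timd4 molecules. It was also higher with Saa3 and Slpi, transcripts of the acute phase response (2.52, SE 0.35, 17 of 18 tags), with Lyve1, Folr2 and Cbr2, markers of resident macrophages (2.08, SE 0.29, 17 of 18), and with Arg1 (1.98, SE 0.51, adjusted p = 0.00265, 14 of 18). Of the cavity macrophages 53.9% were also in the Saa3 and Slpi state, 49.6% in the Arg1 state and 25.8% in the Lyve1 and Folr2 state. The depth of the cavity macrophages was a median of 27829 molecules, against 19962 in the others.

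**Figure D4:**
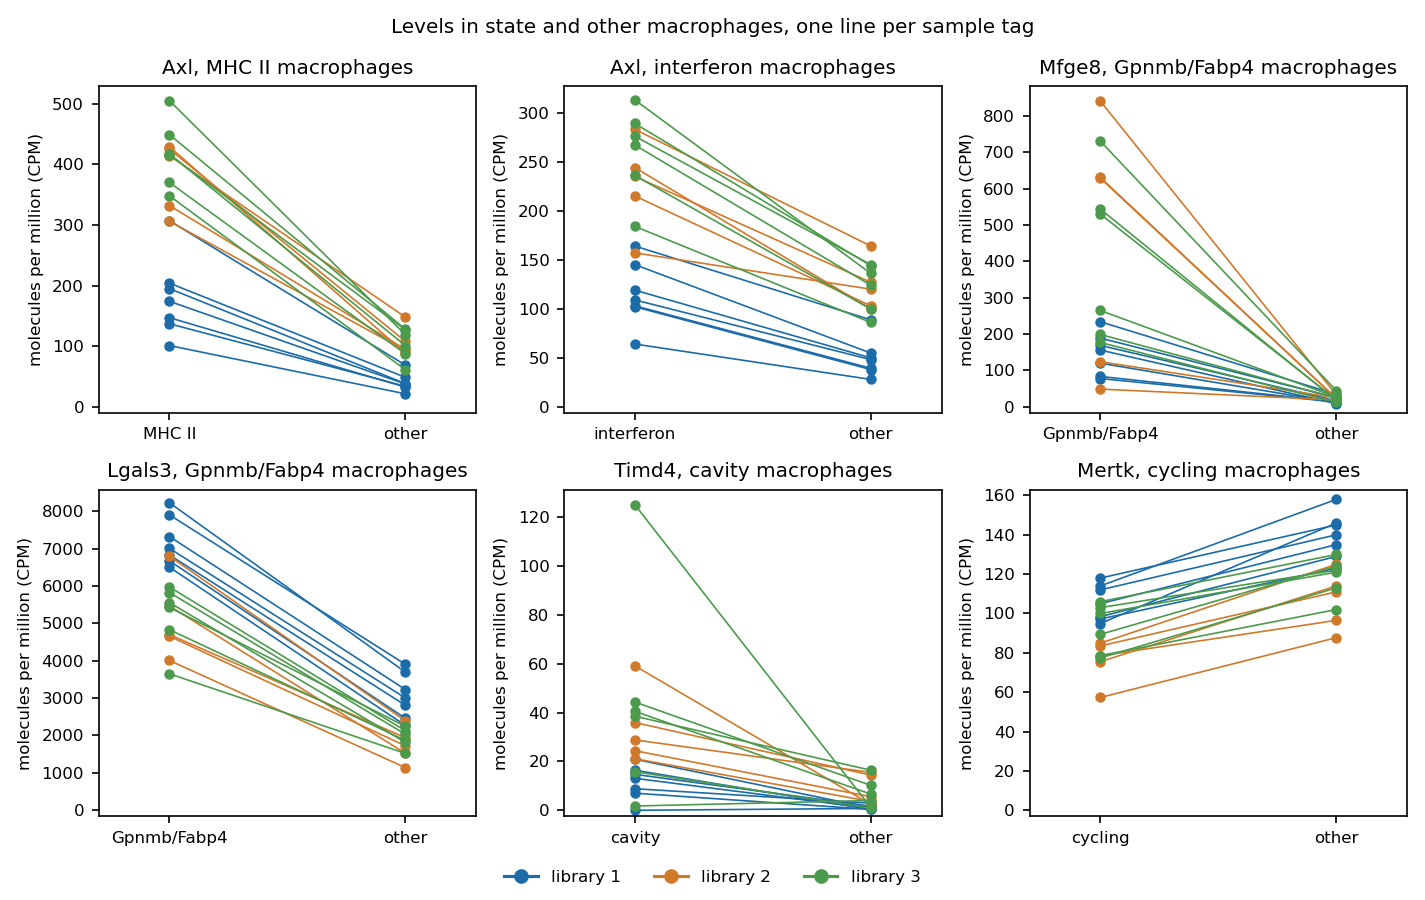
Levels in CPM (vertical axes, linear) in macrophages of a state (left) and the other macrophages (right), with a line for each sample tag coloured by library. Lines fall to the right in 18 of 18 tags for Axl with MHC II genes, Axl with interferon genes, and Mfge8 and Lgals3 with Gpnmb and Fabp4, in 16 of 18 for Timd4 with cavity genes, and rise in 18 of 18 for Mertk with cycling genes.

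In these 4 states Axl was lower, by -1.10 (SE 0.09) with cavity genes, -0.81 (SE 0.17) with Saa3 and Slpi, -1.27 (SE 0.10) with Lyve1 and Folr2 and -1.65 (SE 0.17) with Arg1. It was lower in 18 of 18 tags in 3 of them and in 17 with Saa3 and Slpi. Lgals3 was lower in all 4, from -0.66 to -0.26, and Mfge8 was lower in all 4, from -1.24 to -0.66. The Mfge8 call was lost with cavity genes without library 1 (-0.73, adjusted p = 0.054) or 2 (-0.48, adjusted p = 0.186), with Lyve1 and Folr2 without library 1 (-0.57, adjusted p = 0.204) or 2 (-0.43, adjusted p = 0.258), and with Arg1 without library 2 (-0.78, adjusted p = 0.207) or 3 (-0.25, adjusted p = 0.61), while without library 1 the Arg1 difference was -1.86. With Lyve1 and Folr2, Mfge8 was -1.51 among the deeper macrophages. The Lgals3 call with Lyve1 and Folr2 was lost without library 2 (-0.22, adjusted p = 0.127). Mertk did not pass the test in any of the 4, with differences from -0.08 to 0.13, although it was called with Lyve1 and Folr2 without library 2 (0.19, adjusted p = 0.0285) and, below 0, with Arg1 (-0.14, adjusted p = 0.0165) and with Saa3 and Slpi (-0.15, adjusted p = 0.0332) without library 1. Lrp1 was higher with Arg1 (0.31, SE 0.04, 17 of 18 tags), and was otherwise called with Lyve1 and Folr2 without library 1 (0.13, adjusted p = 0.0199) and with Saa3 and Slpi without library 3 (0.11, adjusted p = 0.022).

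The shares of all genes called higher and lower were 17.9 and 19.0% of 10839 for cavity genes, 21 and 21.6% of 10909 for Saa3 and Slpi, 15.0 and 13.2% of 11083 for Lyve1 and Folr2 and 24.3 and 27.5% of 11057 for Arg1. On the pathway list, cavity macrophages had 27 of 78 genes higher and 36 lower. Olr1 (2.76, SE 0.21), C4b (2.42, SE 0.15) and Cd24a (2.23, SE 0.19) were the highest and also led with Saa3 and Slpi (3.21, 2.41 and 2.36, 32 of 79 genes higher and 29 lower). With Arg1, 32 of 79 were higher and 28 lower, led by Olr1 (3.42), Cd24a (2.16) and Thbs1 (1.90). With Lyve1 and Folr2, 26 of 80 were higher and 21 lower, led by C4b, Gas6 (0.93) and Cd36 (0.88). Itgax was lower with Lyve1 and Folr2 (-1.89), Arg1 (-1.67) and Saa3 and Slpi (-1.09), and the transcription factor Pparg (-0.71) was lower with cavity genes.

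Mertk was also higher with Fcrls and Hpgds, in a state where 21.8% of 11084 genes were called higher and 23.5% lower. It had 95.5, 146 and 184 CPM in this state and 74.9, 112 and 137 CPM in other macrophages, higher in 18 of 18 tags by 0.32 (SE 0.04, adjusted p = 3.99e-07). Mfge8 (-2.07, SE 0.30), Timd4 (-1.43, SE 0.32), Lgals3 (-0.79, SE 0.08) and Lrp1 (-0.19, SE 0.04) were lower, and Axl did not pass the test (0.08, adjusted p = 0.47). Lrp1 lost its call without library 1 (-0.13, adjusted p = 0.0785). On the pathway list 18 of 79 genes were higher, led by Cx3cr1 (1.47), the purine receptor P2ry12 (1.16) and Gas6 (0.95, SE 0.08), and 27 were lower, led by Olr1 (-2.77) and Cd24a (-2.76).

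In macrophages with most transcripts of the cell cycle genes Mki67, Top2a, Cenpe and Pclaf, 4 of 6 members were lower and none higher, where 31.4% of 11225 genes were called lower and 23.7% higher. Mertk had 57.3, 96.1 and 118 CPM in them and 87.7, 124 and 158 CPM in other macrophages, lower in 18 of 18 tags (-0.48, SE 0.03, adjusted p = 5.6e-12). Lrp1 was lower in 18 of 18 tags (-0.32, SE 0.04), Lgals3 in 14 (-0.21, SE 0.05) and Axl in 13 (-0.26, SE 0.08, lost without library 2 at -0.22, adjusted p = 0.0562, and without library 3 at -0.24, adjusted p = 0.05). Mfge8 (-0.36, adjusted p = 0.0651) was called without library 3 (-0.44, adjusted p = 0.0327) and Timd4 (-0.38, adjusted p = 0.242) without library 2 (-0.97, adjusted p = 0.00442). The pathway list had 6 of 80 genes higher and 48 lower, with a median of -0.20 beside -0.04 over all genes. Apoe (-0.66), Abcg1 (-0.55) and the inhibitory receptor Cd300a (-0.47) were lowest, and Rac1, a small GTPase of engulfment, was the highest named (0.07).

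How the members lay together in single macrophages was described in macrophages at or above the median depth of their tag, 6461 with and 1032 without a Mertk molecule, with no test. In cells with at least 1 Mertk molecule, Axl had a median over tags of 73.4 CPM, against 130 CPM in cells with none, and was lower in 18 of 18 tags. The reverse split did not show this, with 116 CPM of Mertk in Axl-positive and 123 CPM in Axl-negative cells, higher in 8 and lower in 10 tags. Mfge8 had 89.3 CPM in Mertk-positive and 23.9 CPM in Mertk-negative cells and was higher in 17 of 18 tags. Here too the reverse split differed, with 123 CPM of Mertk in Mfge8-positive and 120 CPM in Mfge8-negative cells, higher in 7 and lower in 11 tags. In the 20% of macrophages with the largest Lgals3 share, Mfge8 had 245 CPM, against 45.5 CPM in the others, and Timd4 had 0 CPM, against 7.41 CPM, both in 18 of 18 tags. Axl was below its level in the other cells in the groups high in Lrp1 (49.7 against 86.2 CPM, 18 of 18 tags) and Lgals3 (55.2 against 91.9 CPM, 16 of 18 tags). Mertk-positive cells had a median of 33635 molecules and Mertk-negative cells 26182.

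Genes with the most similar profile were ranked by Pearson's r of log2(CPM + 1) over the 98 sums of tag and class, which share their libraries and depth, among 10356 genes. For Lgals3 they were Cd68 (r = 0.94), Psap (0.91) and Ctsa (0.89), for Lrp1 Adam9 (0.91), Emp1 (0.88) and Trappc1 (0.85), and for Mertk Stab1 (0.84), Wwp1 (0.83) and C3ar1 (0.82). Axl was nearest to Selenow (0.82), Ndufb5 (0.82) and Gnas (0.81), Mfge8 to Pebp1 (0.82), Gnas (0.80) and Ppib (0.79), and Timd4 to Tnfsf9 (0.63), Fcna (0.60) and Gpx1 (0.60). With Spearman's rho, 2 of the 3 genes for Mertk and 1 each for Lrp1 and Timd4 were the same, and none for Axl, Mfge8 and Lgals3.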

How the data were processed

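Molecule counts per cell and gene, deposited by the authors, were made per the file headers with the BD Rhapsody WTA pipeline, release 2.0b1 for library 1 and 1.10 for libraries 2 and 3, with the GRCm38 build and GENCODE M19 genes, as the file headers state. Library 1 used other beads and kept intronic reads, per the file headers. The members and lists were chosen with earlier results of these data known.

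Cells with at least 200 genes were classed by marker rules, first match taken (T, B, neutrophil, fibroblast, macrophage, DC, monocyte). Counts were summed per tag and class or state with at least 20 cells on each side. Sums were tested with edgeR 4.0.16 (R 4.3.3; TMM scaling, default filter on low counts, quasi-likelihood F test, the tag as block), with Benjamini-Hochberg adjustment over all genes tested and a threshold of 0.05. The block pairs sums of the same tag, which come from different cells of that tag. The fit was tested on simulated data. Scrublet's automatic threshold called 3, 2 and 0 cells in the 3 libraries, too few to be of use, so doublets were kept, and leaving out the top 2% of scores was an alternative. Pathway genes named are up to 3 in each direction with the largest called difference, the same direction in every tag and at least 10 CPM in a group, and Gas6, Pros1 and Trem2 beyond that rule were chosen after their values were seen. Tags are nested in the libraries, which are the series' 3 samples. With the tag as block, p-values measure how differences within a tag spread between tags, and not the spread between libraries. One gene of the marker and pathway lists is counted in them but not reported here by itself.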

Additional observations from a re-analysis of the deposited data

Results flagged for a closer look

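In 35 groups of 4 to 10 tags (a member's level in a class, or in the macrophages of a library), 2 had a tag that stood far from the others by Dixon's test, where chance gives about 1 in 20. Axl in monocytes was 226 CPM in a tag of library 2, against 102 CPM in the next of the 10 tags and a median of 53.9 CPM. Timd4 in fibroblasts was 2.46 CPM in a tag of library 2, from 1 molecule, against 1.07 CPM in the next of the 9 tags and a median of 0 CPM.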

How the results depend on the processing

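Of 1445 member differences recomputed under other settings, 1301 kept direction and side of the threshold, 77 lost the call, 31 gained it and 36 changed sign. Called differences that changed sign were Mfge8 with Lyve1 and Folr2 in library 3 alone (0.31), Mfge8 with Arg1 in library 1 alone (0.45) and Lgals3 with MHC II in the deeper macrophages (0.00), and Timd4 against DC was called above 0 in library 3 alone (2.66). Ranges given here for fits without a library also hold fits that kept their sign, some of them called. The other sign changes were called neither before nor after. Against monocytes they were Lrp1 with no filter (0.09), in library 2 alone (0.21) and without a library (-0.10 to 0.24), and Axl in library 2 alone (-0.22). Timd4 against DC was 0.00 with no replicate block and -1.13 to 0.21 without a library. With Lyve1 and Folr2 they were Lrp1 in library 1 alone (-0.02) and the top 10% (-0.03), and Mertk in library 2 alone (-0.07) and without a library (-0.02 to 0.19). In library 1 alone, Mertk was 0.01 with Arg1, 0.08 with Saa3 and Slpi, 0.08 with cavity genes and 0.07 with F7, and without a library -0.15 to 0.00 with Saa3 and Slpi and -0.11 to 0.02 with cavity genes. Lrp1 with cavity genes was -0.03 with no filter, -0.01 in library 1 alone, 0.00 in the top 10% and the deeper macrophages and 0.00 to 0.04 without a library. With interferon genes, Lgals3 was -0.02 with no filter and -0.01 in library 1 alone, Timd4 0.04 in library 1 alone and Mfge8 -0.34 in library 3 alone. Timd4 was 0.54 with cycling genes in library 2 alone, and with F7 -0.08 with DESeq2, -0.05 with no replicate block, -0.24 in library 3 alone, -0.01 with at least 50 cells and -0.07 to 0.32 without a library. Members called against monocytes were 3, and 5 with no filter on low counts, 6 in library 1 alone and 6 with at least 50 cells. Over all genes, 3622 were called higher and 3569 lower of 11138 there, and 5018 and 2592 of 27578 with no filter. In library 1 alone, and with at least 50 cells, the calls were 4171 and 3862 of 12758. Members called against B cells were 6, and 3 in library 2 alone. Over all genes, calls higher and lower against B cells were 2652 and 2592 of 10570, and 742 and 1044 of 10405 in library 2 alone. With no replicate block, that is without the tag as block, the count was 2 in place of 4 with Lyve1 and Folr2, 1 in place of 3 with interferon genes and 2 in place of 4 with cycling genes. Calls over all genes fell as well, to 624 higher and 483 lower in place of 1666 and 1462 with Lyve1 and Folr2, 706 and 315 in place of 1675 and 1818 with interferon genes, and 1778 and 1533 in place of 2659 and 3528 with cycling genes. In a library alone the count was 2 with Lyve1 and Folr2 (library 3), 2 of 5 (library 1) and 3 of 5 (library 2) with Arg1, 2 of 4 with Saa3 and Slpi (library 1), 3 of 5 with Fcrls and Hpgds (library 2, and library 3), 1 of 3 with interferon genes (library 2), 2 of 4 with cycling genes (library 3) and 1 of 4 with F7 (library 2). Over all genes, of which 10374 to 12577 were tested, calls higher and lower also fell in these fits. They were 1052 and 880 with Lyve1 and Folr2, and 1576 and 1278 (library 1) and 1413 and 1276 (library 2) with Arg1. With Saa3 and Slpi they were 1467 and 1087, and with Fcrls and Hpgds 610 and 766 (library 2) and 959 and 1239 (library 3). With interferon genes they were 497 and 245, with cycling genes 1052 and 839, and with F7 936 and 719. Of neighbours in the level order 14 were called, and 6 in library 2 alone, 9 in cells that met 1 rule and 8 with at least 50 cells. The cause was not tested; a library alone has fewer tags. Leaving out each library in turn gave 3 to 3 members against monocytes, 5 to 6 against DC, neutrophils, T and B cells, 5 to 5 against fibroblasts, 3 to 4 with Lyve1 and Folr2 and with cavity genes, 5 to 6 with MHC II and with Gpnmb and Fabp4, 4 to 6 with Arg1, 4 to 5 with Saa3 and Slpi, Fcrls and Hpgds and cycling genes, 2 to 3 with interferon genes, 4 to 4 with F7, and 10 to 14 for the level order. Fits of library 3 alone against monocytes, library 2 alone against neutrophils and library 1 alone against fibroblasts, and of 50 cells against fibroblasts, had too few tags and were not run. Timd4 in neutrophils and fibroblasts and Mfge8 in neutrophils rest on few molecules, which limits their folds.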
